A study of Mus musculus with 2 samples.

Results

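The clustered protocadherins were taken as every non-control probe of the array whose gene name begins with Pcdha, Pcdhb or Pcdhg. The rule gave 40 probes of 36 genes, out of 56594 probes and 37070 gene names on the array. Of these, 8 probes of 7 genes belonged to the alpha cluster, 23 probes of 22 genes to the beta cluster and 9 probes of 7 genes to the gamma cluster. RefSeq lists 58 genes under these names, namely 14 alpha, 22 beta and 22 gamma genes, so the array names every beta gene but only 7 of the 14 alpha and 7 of the 22 gamma genes. The family was picked with the differences between the 2 arrays known, so its values are given as a description and no test of them was run.

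The RNA came from skin tumours that repeated ultraviolet B (UVB) exposure had raised on the backs of male mice, with 1 RNA sample from P2ry6-/- mice, called KO here, and 1 from P2ry6+/+ mice, called WT. P2ry6 encodes a G protein-coupled receptor for the nucleotide UDP, and the question was which tumour genes differ with its deletion. Mice of both genotypes were 2 months old when exposure began, at 180 mJ/cm2 for 10 weeks. The dose then went up by 10 mJ/cm2 a week to 300 mJ/cm2 at week 22 and was held to week 40. The strain, the part of P2ry6 that was deleted, and the number of tumours or mice behind each RNA sample are not given in the sources used here.

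Clustered protocadherins are adhesion proteins of the cadherin superfamily that sit in the cell membrane and bind the same isoform on a neighbouring cell. In mice the genes stand in a row on chromosome 18 as an alpha, a beta and a gamma cluster. Each alpha and gamma variable exon encodes the extracellular part, has its own promoter, and is spliced to constant exons at the 3′ end of its cluster that encode a shared cytoplasmic end. Beta genes consist of a single coding exon and have no such shared end. The family is best known in neurons, where each cell uses a different combination of isoforms to tell its own branches from those of other cells, and CTCF, cohesin and DNA methylation govern which promoters are active. The probes lie on the plus strand of chr18 (mm9, the build of the array files). Those of the alpha cluster span chr18:37114742-37347294, those of the beta cluster chr18:37427011-37680728 and those of the gamma cluster chr18:37823813-38001437. No exon annotation of that build was used here.

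Each genotype was measured on 1 single-colour array, and both arrays shared a slide and a scan. Well above background were 57.9% of the 59305 non-control spots on the KO-labelled array and 57.8% on the WT-labelled array, and no spot was saturated. The lowest signal well above background was 17.4 units on the KO-labelled array and 17.7 units on the WT-labelled array. A level here is the log2 signal minus the array's 75th percentile, which was taken after replicate spots had been merged. The KO-labelled minus the WT-labelled percentile was −0.085 log2 units. A difference is the KO-labelled minus the WT-labelled level. A scale set by 8 spike-in probes would shift all differences by −0.46, so list medians and genes above 0 by less than that size, Pcdha8 and Pcdhb19 among them, change sign on it. A gene was counted as measured where a probe was well above background on both arrays, and as 2-fold apart where its difference was at least 1 log2 unit. With 1 array per genotype no error between mice or tumours exists, no p-value can be given, and the ± beside a difference is the error model of the scanner software for that probe on both arrays. Replicate spots of a probe had an SD of 0.12 in the difference (291 probes) and different probes of a gene an SD of 0.38 (6772 genes).

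P2ry6 itself ran against the labels and was higher on the KO-labelled array. Its probes read 835 and 318 units on the KO-labelled array, against 364 and 137 units on the WT-labelled array, a difference of 1.29 ± 0.01 (SD, 2 probes) or 2.44-fold. Since the deleted stretch of the gene is not known here, these probes may lie outside it and then say nothing about the genotype. Every direction below therefore rests on the array labels. The tissue label was borne by epidermal markers: 8 of 8 basal keratinocyte genes, which mark the dividing layer, and 6 of 6 suprabasal genes on the array were measured, with Krt14 at a level of 9.55 on the KO-labelled and 9.54 on the WT-labelled array.

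By gene name, beta genes were measured more often than alpha or gamma genes. Of the 22 beta genes 12 (54.5%) were measured on both arrays, against 1 of 7 alpha genes (14.3%) and 1 of 7 gamma genes (14.3%). Over all genes on the array this share was 53.3%, close to that of the beta genes. The measured gamma gene is Pcdhga9, which only probes at the shared end name. Probe placement differs between the clusters, and its part in these shares was not tested. Another 2 beta genes were above background on the KO-labelled array alone and 2 on the WT-labelled array alone, so each array showed 14 beta genes (63.6%), and 6 beta genes were above background on neither. Outside the beta cluster, readings above background came from Pcdha8 and from the probes at the shared 3′ ends. None of the 7 gamma probes for a gene's own stretch was measured, and 1 of the 6 alpha probes of this kind was, whereas both gamma probes at the shared end were. The probes of different genes differ in position and in base composition, so no level is set against another gene's. Measured beta probes had a median G+C content of 35% and the other beta probes 40%.

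**Figure D1:**
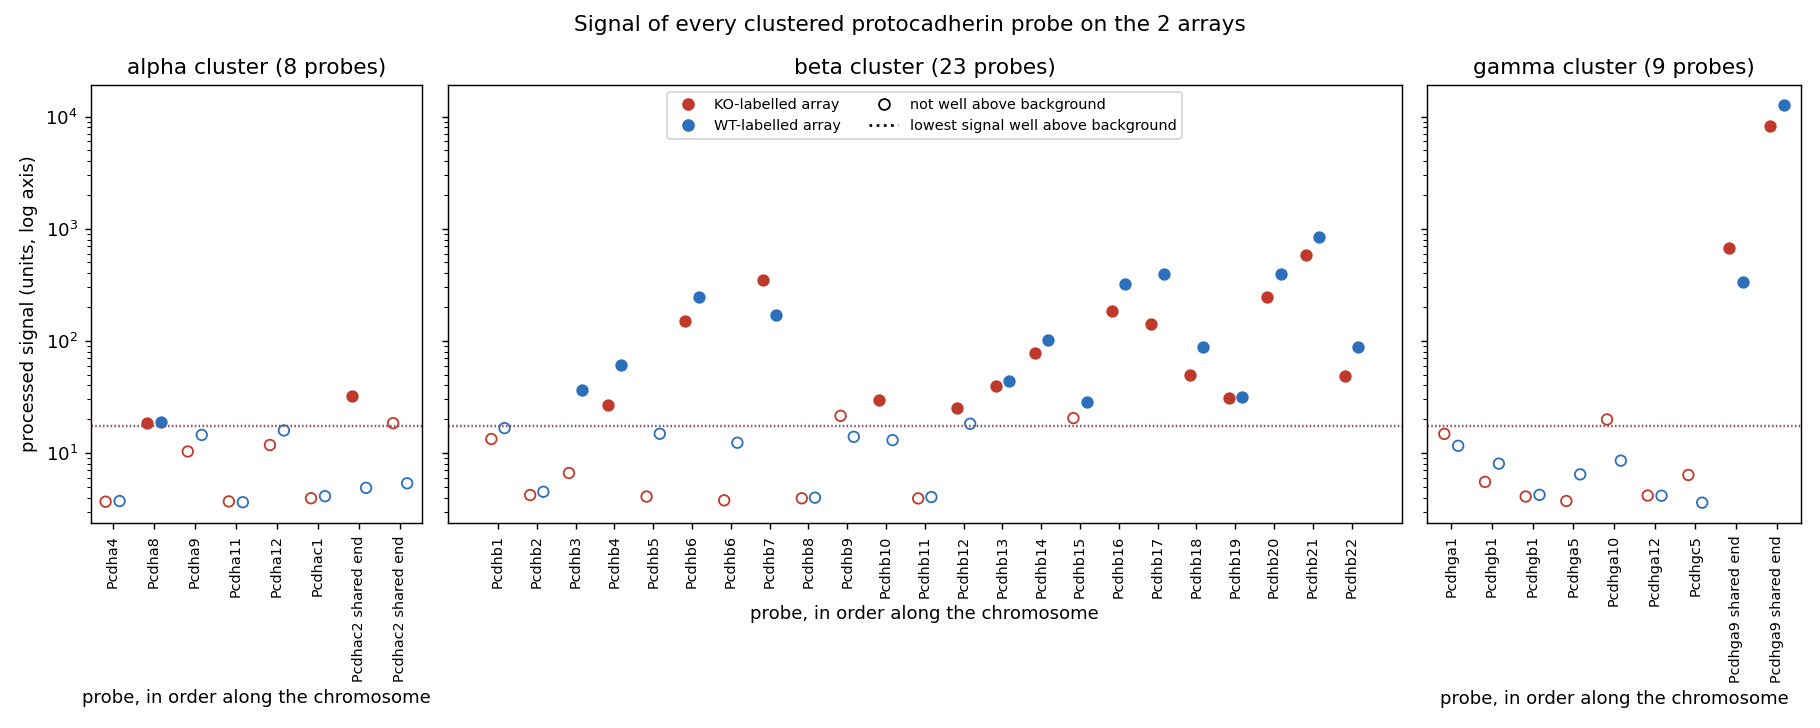
Processed signal (units, log axis) of every clustered protocadherin probe on the KO-labelled array (red) and the WT-labelled array (blue), in chromosome order within each cluster. Filled points are well above background, open points are not, and the dotted lines mark the lowest signal well above background (17.4 and 17.7 units). Filled pairs crowd the right-hand part of the beta panel and the 2 shared-end probes of the gamma panel.

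Most measured beta genes were lower on the KO-labelled array. Of the 12, 10 lay below 0 and 2 above, with a median difference of −0.61 and a range of −1.39 to 1.10, while 54.9% of all 19753 measured genes lay below 0, with a median of −0.06 and an SD of 0.65. At the 2-fold threshold 2 beta genes were lower, 1 was higher and 9 were neither; 9.84% of all measured genes were at least 2-fold apart, 5.04% lower and 4.8% higher, and counts this small are given as a description only. Among the 12528 genes within the range of mean level of the beta genes, 48.6% lay below 0, and 11.6% were 2-fold apart, 5.16% lower and 6.39% higher, with a median of 0.02 and an SD of 0.69. By more than 2 scanner errors, 8 of the 12 measured beta probes were lower and 1 was higher, while of all measured probes 21.6% were lower and 18.4% higher by that much, and of those in the same range of mean level 18.8% were lower and 23.7% higher. The scanner error covers technical noise only, not the spread between tumours. The signals of the 12 probes summed to 1923 units on the KO-labelled array and 2786 units on the WT-labelled array. In bulk RNA, fewer cells that express a gene and less of its RNA per cell cannot be told apart.

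Pcdhb17 stood furthest from 0. Its probe (chr18:37647758-37647817) read 142 units on the KO-labelled array, against 394 units on the WT-labelled array, a difference of −1.39 ± 0.21 or 2.61-fold lower. Pcdhb4 (chr18:37470024-37470083) read 26.6 units on the KO-labelled array, against 60.5 units on the WT-labelled array, a difference of −1.10 ± 0.29 or 2.14-fold lower. The Pcdhb4 reading on the KO-labelled array lay close to the background limit, and its difference was −0.44 under normexp background correction, short of 2-fold, whereas that of Pcdhb17 was −1.04.

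Pcdhb7 ran the other way. Its probe (chr18:37504330-37504389) read 345 units on the KO-labelled array, against 171 units on the WT-labelled array, a difference of 1.10 ± 0.21 or 2.14-fold higher. The 2-fold call did not hold under normexp background correction (0.87) or on the spike-in scale (0.63), although the difference stayed above 0 in both. The measured genes before it in the row, Pcdhb4 and Pcdhb6, were lower on the KO-labelled array, so neighbouring beta genes differed in direction. After it, Pcdhb10 and Pcdhb12 were above background on the KO-labelled array alone, and the next measured gene, Pcdhb13, differed by −0.06.

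The other beta genes that were lower by more than 2 scanner errors lay short of 2-fold. Pcdhb22 read 48.9 units on the KO-labelled array, against 88.9 on the WT-labelled array, a difference of −0.78 ± 0.24. Pcdhb18 read 49.6 units on the KO-labelled array, against 87.9 units on the WT-labelled array, a difference of −0.74 ± 0.24. Pcdhb16 read 186 units on the KO-labelled array, against 324 units on the WT-labelled array, a difference of −0.71 ± 0.21. These 3 were 1.64-fold to 1.71-fold lower. Pcdhb6 read 151 units on the KO-labelled array and 247 units on the WT-labelled array, a difference of −0.62 ± 0.21, while its second probe (3.79 units KO-labelled, 12.4 units WT-labelled) was above background on neither. Pcdhb20 read 244 units on the KO-labelled array and 392 units on the WT-labelled array, a difference of −0.60 ± 0.21. Pcdhb21 read 580.3 units on the KO-labelled array and 844 units on the WT-labelled array, a difference of −0.46 ± 0.20.

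For 3 beta genes the difference stayed within 2 scanner errors. Pcdhb14 read 78.5 units on the KO-labelled array and 101 units on the WT-labelled array, a difference of −0.28 ± 0.22. Pcdhb13 read 39.4 units on the KO-labelled array and 43.5 units on the WT-labelled array, a difference of −0.06 ± 0.28. Pcdhb19 read 30.7 units on the KO-labelled array and 31.3 units on the WT-labelled array; its level differed by 0.06 ± 0.35, above 0 only because the 75th percentile of the KO-labelled array was the lower. The sign of the smallest turned with the processing, to 0.02 for Pcdhb13 under normexp background correction and to −0.04 for Pcdhb19 under quantile normalization.

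**Figure D2:**
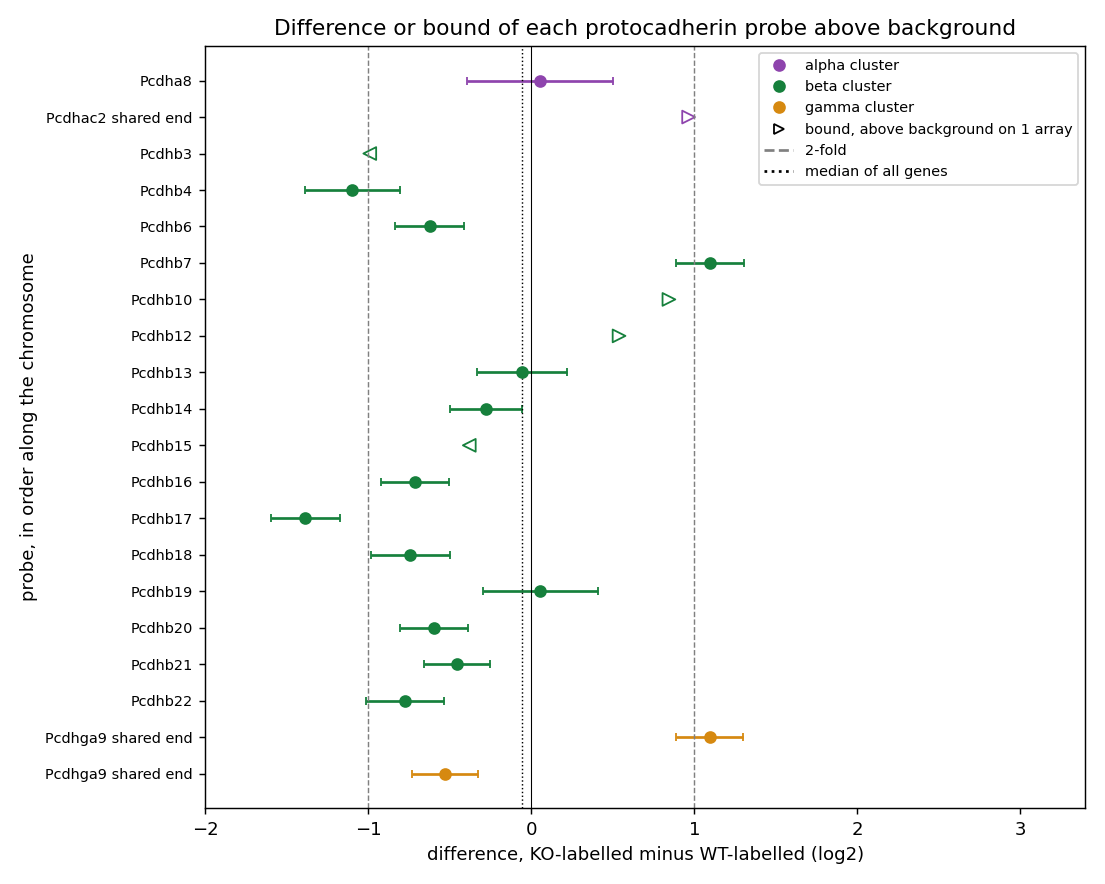
Difference between the arrays (log2, KO-labelled minus WT-labelled) for each clustered protocadherin probe above background, in chromosome order; bars are 1 scanner error each way, triangles are bounds for probes above background on 1 array, and dashed lines mark 2-fold. For Pcdhb12 and Pcdhb15 the triangle is the plain difference. Most beta points (green) lie between −1.39 and 0, Pcdhb7 lies at 1.10, and the 2 gamma shared-end probes lie on opposite sides of 0.

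Beta genes above background on 1 array are given a bound, taken between the level where the probe was bright and, for the other array, either the probe's own level there or the array's lowest level well above background, whichever is greater. Pcdhb3 read 6.63 units on the KO-labelled array, not well above background, against 36.7 units on the WT-labelled array, so it was at least 1.99-fold lower. Pcdhb15 read 20.5 units on the KO-labelled array, not well above background, against 28.3 units on the WT-labelled array. Its own level on the KO-labelled array was the greater, so the value is the plain difference, −0.38 ± 0.42 or 1.30-fold lower. That lies within 1 scanner error of 0. Both genes read lower on the KO-labelled array, the direction of most measured beta genes, though Pcdhb15 did so within its error. Pcdhb10 read 29.9 units on the KO-labelled array, against 13.02 units, not well above background, on the WT-labelled array, at least 1.79-fold higher. Pcdhb12 read 24.9 units on the KO-labelled array, against 18.2 units, not well above background, on the WT-labelled array. Its value is also the plain difference, 0.54 ± 0.48 or 1.45-fold higher, within 2 scanner errors of 0. Thus 0 of these 4 values reached 2-fold. By the same rule, 22.9% of all genes above background on the KO-labelled array alone reached it. For those on the WT-labelled array alone the share was 24.5%. The 6 beta genes above background on neither array were Pcdhb1, Pcdhb2, Pcdhb5, Pcdhb8, Pcdhb9 and Pcdhb11, and the beta probes in this state, the second Pcdhb6 probe included, read 3.79 to 21.4 units on the KO-labelled array and 3.998 to 16.7 units on the WT-labelled array.

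**Figure D3:**
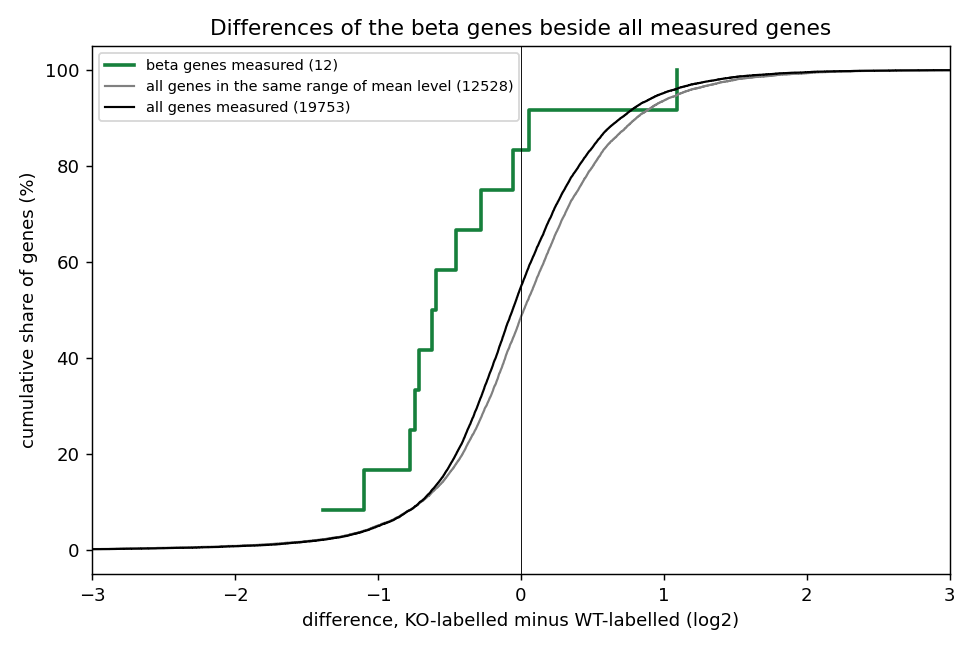
Cumulative share of genes (%) against the difference between the arrays (log2, KO-labelled minus WT-labelled) for the 12 measured beta genes (green), for 12528 genes in the same range of mean level (grey) and for all 19753 measured genes (black). From −1.39, where the green steps begin, up to 0 they lie above both other curves, with 10 of the 12 genes below it, and the last step is Pcdhb7 at 1.10.

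Detection within the beta cluster followed gene order. Of the 12 genes from Pcdhb1 to Pcdhb12, 3 were measured on both arrays, 5 were above background on the KO-labelled array and 4 on the WT-labelled array. Of the 10 genes from Pcdhb13 to Pcdhb22, 9 were measured on both, with 9 above background on the KO-labelled array and all 10 on the WT-labelled array. The dividing point was chosen after these values were seen. In the first stretch Pcdhb4 and Pcdhb6 were lower and Pcdhb7 was higher on the KO-labelled array. In the second stretch the median difference was −0.60, with 8 of 9 genes below 0 and a range of −1.39 to 0.06. Within the second stretch no gene was 2-fold higher and Pcdhb17 alone was 2-fold lower.

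Measured probes of the other clusters were few. In the alpha cluster Pcdha8 (chr18:37154205-37154264, a probe whose accessions also list Pcdha7) read 18.3 units on the KO-labelled array and 18.8 units on the WT-labelled array, a difference of 0.05 ± 0.45. Both readings lay just above the background limit. The own-stretch probes of Pcdha4, Pcdha9, Pcdha11, Pcdha12 and Pcdhac1 were above background on neither array. Alpha probes in this state, a shared-end probe included, read 3.68 to 18.5 units on the KO-labelled array and 3.64 to 15.9 units on the WT-labelled array.

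The shared end of the alpha cluster was represented by 2 probes named Pcdhac2, whose accessions list Pcdha4, Pcdha9, Pcdhac1 and Pcdhac2 and which lie 3′ of every other alpha probe. They cannot tell which alpha variable exon a transcript carries. The upstream probe (chr18:37344758-37344817) read 32.5 units on the KO-labelled array, against 4.89 units, not well above background, on the WT-labelled array, at least 1.95-fold higher. The downstream probe (chr18:37347235-37347294), starting 2477 bases further on, read 18.5 units on the KO-labelled array and 5.37 units on the WT-labelled array and was well above background on neither. Of the 4 alpha shared-end readings 3 were not well above background, and the plain differences of the 2 probes, 2.82 ± 1.47 upstream and 1.87 ± 1.13 downstream, lay within 2 scanner errors of 0.

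The shared end of the gamma cluster was represented by 2 probes named Pcdhga9, whose accessions list Pcdhga1, Pcdhga5, Pcdhga6 and Pcdhga9 and which lie 3′ of every other gamma probe. These probes differed in opposite directions. The upstream probe (chr18:37999725-37999784) read 675 units on the KO-labelled array, against 335 units on the WT-labelled array, a difference of 1.09 ± 0.21 or 2.14-fold higher (0.85 under normexp and 0.63 on the spike-in scale, both short of 2-fold). The downstream probe (chr18:38001378-38001437), starting 1653 bases further on, read 8305 units on the KO-labelled array, against 12729 units on the WT-labelled array, a difference of −0.53 ± 0.20 or 1.44-fold lower. It was −0.27 under quantile normalization and −0.29 with the log2 values that the authors deposited. Their mean of 0.28 ± 1.15 (SD, 2 probes) therefore describes neither. The 2 differences lie 1.63 log2 units apart, beyond the SD of 0.38 between probes of a gene over the whole array. Which of them follows the total of gamma transcripts was not tested. The own-stretch probes of the 6 other gamma genes (Pcdhga1, Pcdhga5, Pcdhga10, Pcdhga12, Pcdhgb1 and Pcdhgc5) were above background on neither array. They read 3.73 to 19.9 units on the KO-labelled array and 3.61 to 11.6 units on the WT-labelled array. Pcdhga1 and Pcdhga5 are also listed for the shared-end probes, so these dim probes alone do not show that the genes were silent.

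Across the family, by the gene names on the array, 14 of 36 genes (38.9%) were measured and 17 were above background on neither array. Another 3 were above background on the KO-labelled array alone (Pcdhac2, Pcdhb10 and Pcdhb12) and 2 on the WT-labelled array alone (Pcdhb3 and Pcdhb15). Pcdhac2 and Pcdhga9 were probed only at a shared end, so their entries stand for that end and not for the gene of that name. Members are similar in sequence. Over 780 pairs of member probes the longest run of bases shared by a pair was 12 of 60, and 0 pairs overlapped in position. Probes were compared only with each other, and whether a probe also matches transcripts of other members was not tested.

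Genes beside the clusters were read within 200 kb of the first and the last member probe and in the gaps. Of 15 such genes measured, 2 were 2-fold higher, 0 were 2-fold lower and 13 were neither, with 11 below 0 and a median of −0.12. Over all measured genes 4.8% were 2-fold higher, 5.04% were 2-fold lower and 54.9% lay below 0. Counts this small are given as a description only. Before the alpha cluster, 8 genes had a median of −0.08, and the vault RNA gene Vaultrc5 stood at 572 units on the KO-labelled array, against 267 units on the WT-labelled array (1.19 ± 0.21). The splicing factor gene Ik differed by −0.61, the histidyl-tRNA synthetase genes Hars and Hars2 by −0.37 and 0.19, Wdr55 by −0.17, Dnd1 by −0.12, Zmat2 by −0.04 and Gm6756 by 0.04. Between the beta and gamma clusters Taf7, a subunit of the general transcription factor TFIID, read 37.2 units on the KO-labelled array and 41.6 units on the WT-labelled array (−0.08 ± 0.30). Its difference was smaller than 1 scanner error, as were those of the similarly dim Pcdhb13 and Pcdhb19, while most other measured beta genes differed by more. A second Taf7 probe was above background on neither array (3.55 units KO-labelled, 3.66 units WT-labelled). With 1 dim probe for Taf7, no contrast with the beta genes is drawn. Slc25a2 and 3222401L13Rik in the same gap, and Gm38666, Gm10545 and Gm10544 within the alpha cluster, were above background on neither array. The probes named Gm38666 also list Pcdha5, Pcdha6 or Pcdha10, alpha genes that the array does not name, so the rule by gene name left them out.

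After the gamma cluster, 6 genes had a median of −0.45, with 5 of them below 0 (54.9% over all measured genes). Diap1 (Diaph1 in RefSeq), which encodes an actin-nucleating formin, had a mean difference of −0.38 over 3 probes. Its nearest probe starts 1836 bases beyond the end of the last gamma probe, on the minus strand, and read 6280.5 units on the KO-labelled array, against 9514 units on the WT-labelled array (−0.51 ± 0.20). That difference and the −0.53 of the downstream gamma probe lie within 1 scanner error of each other. Whether these probes differ for a shared reason was not tested. Fchsd1 (−0.98), Rell2 (−0.69), BB162508 (−0.53) and the histone deacetylase gene Hdac3 (−0.11) were also below 0, and Arap3, at 435 units on the KO-labelled array and 207 units on the WT-labelled array (1.16 ± 0.21), was 2-fold higher.

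**Figure D4:**
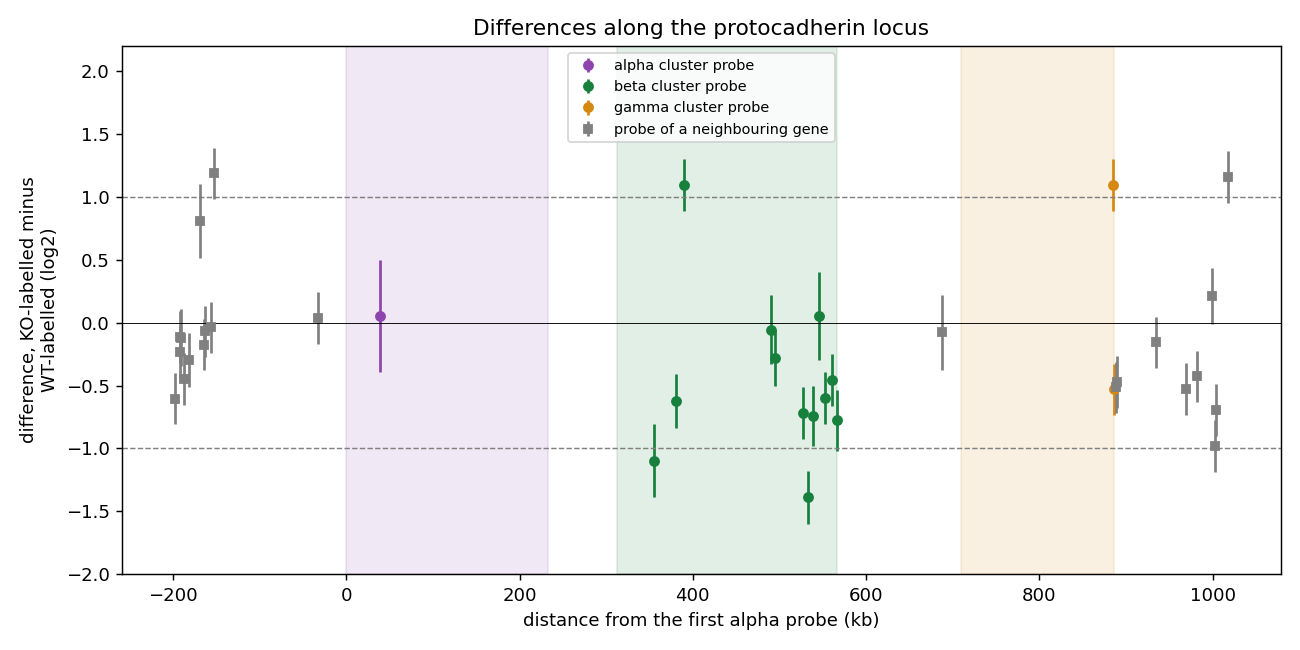
Difference between the arrays (log2, KO-labelled minus WT-labelled, bars 1 scanner error each way) against distance from the first alpha probe (kb) for measured probes of the alpha (purple), beta (green) and gamma (orange) clusters and of neighbouring genes (grey squares), with the clusters shaded. Measured beta points lie mostly below 0, Taf7 between the beta and gamma clusters lies at −0.08, and the downstream gamma probe lies beside the nearest Diap1 probe at −0.53 and −0.51.

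The related adhesion genes lay on both sides of 0. For this and the following lists, the shares over all measured genes were 4.8% 2-fold higher and 5.04% 2-fold lower. Of 12 non-clustered protocadherins, which have their own scattered loci, 7 were measured, 1 was 2-fold higher, 1 lower and 5 neither, with a median of 0.41 and 5 of the 7 above 0. Pcdh17 differed by 1.03 and Pcdh1, which is expressed in epithelia, by −1.08, while Pcdh8, Pcdh9, Pcdh10, Pcdh15 and Pcdh20 were above background on neither array. Of 19 classical and related cadherins 9 were measured, of which Cdh4 was 2-fold higher (1.04), 0 were lower and 8 were neither, with a median of −0.03. The list thus centred near 0, and the epithelial cadherin Cdh1 differed by −0.30.

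Genes known to govern the cluster promoters were measured throughout. Of 19 such genes 18 were on the array and all 18 were measured, with 0 of them 2-fold apart in either direction (9.84% over all genes), a median of −0.02 and a range of −0.40 to 0.49. The insulator protein gene Ctcf differed by −0.08 and the cohesin subunit gene Rad21 by −0.13. Smchd1, a repressor of the clusters, differed by 0.23 and Dnmt3b, a DNA methyltransferase that acts on their promoters, by −0.27. The ends of the range were Stag1, another cohesin subunit (0.49), and the maintenance methyltransferase gene Dnmt1 (−0.40).

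Of 18 genes for binding partners of protocadherin cytoplasmic ends and for the proteases that cleave these proteins, 17 were measured, 1 was 2-fold higher, 0 lower and 16 neither, with a median of −0.09. The member that was higher was Ret, a receptor tyrosine kinase that complexes with protocadherins, which read 49.9 units on the KO-labelled array, against 19.5 units on the WT-labelled array (1.44, 2.72-fold), where it lay close to the background limit. The sheddase gene Adam10 differed by −0.03. The actin regulators of the WAVE complex lay on both sides of 0, from Wasf1 at 0.64 to Abi1 at −0.51, and Wasf3 was above background on neither array.

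Markers of neurons, the cells best known for these genes, and of Schwann cells differed in both directions. Of 11 neuron markers 5 were measured, 0 were 2-fold higher, 1 was lower (Map2, −1.47) and 4 were neither. Their median was 0.56, with 2 below 0. Tubb3 stood at a level of 1.22 on the KO-labelled and 2.09 on the WT-labelled array, and Snap25 at 2.67 and 2.11. Gap43 was above background on the WT-labelled array alone (16.4 units KO-labelled, 61.8 units WT-labelled). The defining markers Rbfox3, Nefl, Nefm, Syt1 and Prph were above background on neither array. The summed neuron marker signal, in units of the array's 75th percentile, was 6.14 on the KO-labelled and 7.54 on the WT-labelled array. Of 12 Schwann cell markers 9 were measured, 2 were 2-fold higher (S100b, 2.60, and Ncam1, 1.19), 2 lower (Mbp, −2.21, and L1cam, −1.32) and 5 neither, with a median of −0.41. Sox10, a defining Schwann cell and melanocyte factor, was above background on the WT-labelled array alone (6.10 units KO-labelled, 39.2 units WT-labelled), Gfap and Cdh19 were on neither, and the summed signal was 6.47 on the KO-labelled and 9.40 on the WT-labelled array. Members of this list thus differed in both directions, and Mbp (4.63-fold lower) and S100b (6.06-fold higher) were its ends.

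Other cell types differed between the tumours as well. Of 6 melanocyte markers 4 were measured, 3 of them 2-fold lower (Pmel −3.07, Dct −2.82, Mlana −1.77) and Kit neither. The 2 Dct probes lay far apart (SD 2.72), so the Dct mean describes neither of them. The summed melanocyte signal was 0.868 on the KO-labelled and 4.70 on the WT-labelled array. Of the 6 measured suprabasal keratinocyte markers, genes of the differentiating layers, 4 were 2-fold lower (Dsg1a, Krt1, Krt10 and Dsc1), 0 higher and 2 neither, with a median of −1.20 and summed signals of 385 on the KO-labelled and 875 on the WT-labelled array. Basal keratinocyte markers had a median of 0.03, with Krt5 2-fold higher (1.66) and 7 of 8 neither, and summed signals of 1449 on the KO-labelled and 1094 on the WT-labelled array. Epidermal markers of the differentiating layers were thus lower on the KO-labelled array and those of the basal layer were centred near 0.

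The stromal lists leaned the other way or stayed near 0. Of 9 fibroblast markers 0 were 2-fold apart, with a median of 0.21 and summed signals of 109.6 on the KO-labelled and 114.6 on the WT-labelled array, and the 2 with the largest differences were Pdgfra (0.58) and Dcn (−0.50). Of 7 endothelial markers 0 were 2-fold apart (median 0.12, summed signals 8.57 on the KO-labelled and 6.45 on the WT-labelled array), led by Emcn (0.68) and Vwf (0.67). Of 4 measured smooth muscle markers 3 were 2-fold higher (Tagln 1.81, Acta2 1.38, Cnn1 1.05), with a median of 1.22 and summed signals of 59.4 on the KO-labelled and 19.7 on the WT-labelled array. Of 6 macrophage markers 1 was 2-fold higher (C1qb, 1.28) and 5 neither, with a median of 0.76 and summed signals of 20.1 on the KO-labelled and 11.6 on the WT-labelled array. The melanocyte, suprabasal, Schwann cell, neuron and, by little, fibroblast sums were lower on the KO-labelled array, and the smooth muscle, macrophage, basal and endothelial sums were higher. Sums are carried by the brightest probes, and in the neuron and fibroblast lists the sum was lower on the KO-labelled array while the median difference was above 0. The part of these cell types in the protocadherin differences was not tested.

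**Figure D5:**
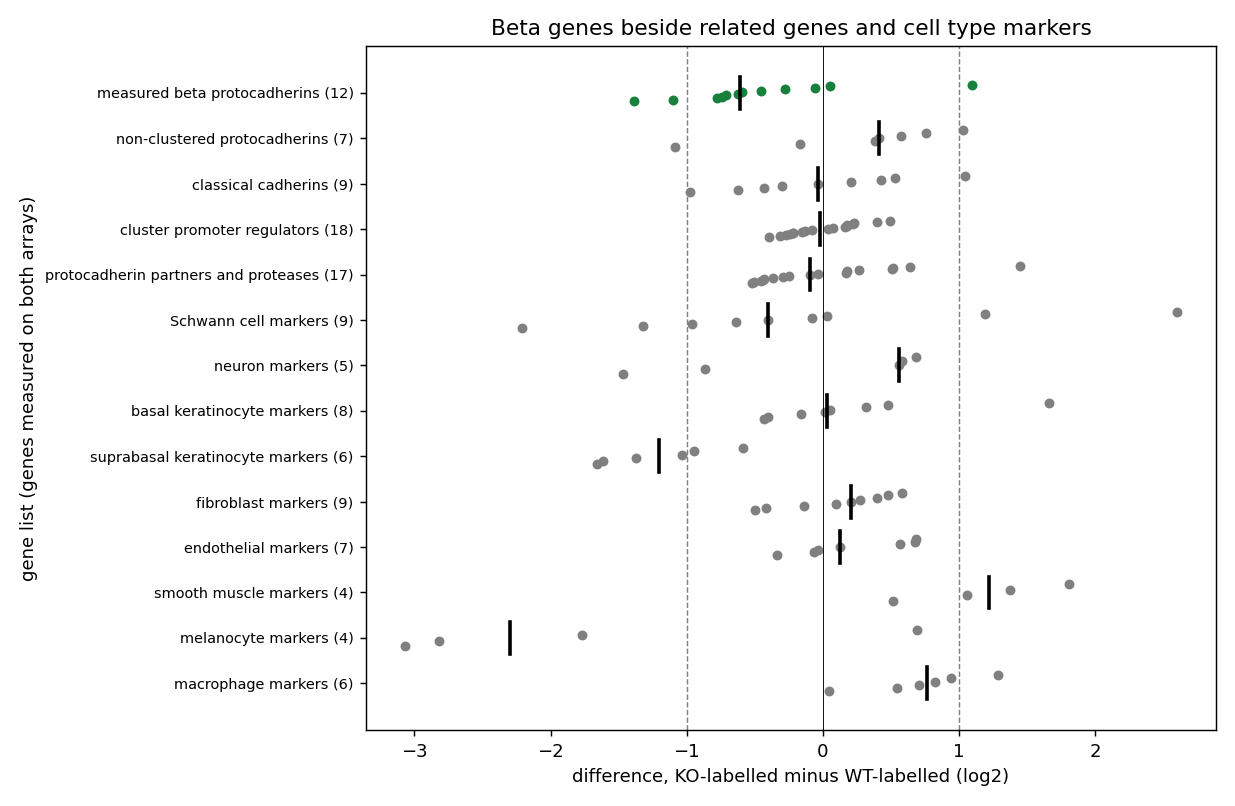
Difference between the arrays (log2, KO-labelled minus WT-labelled) of each measured gene in the beta cluster (green) and in 13 lists of related genes and cell type markers (grey), with the median of each list as a black bar and dashed lines at 2-fold. The beta median lies at −0.61, that of the promoter regulators at −0.02 with all 18 genes inside the dashed lines, and those of melanocyte and suprabasal markers at −2.30 and −1.20.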

How the data were processed

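The labels' protocols state that 0.2 µg of total RNA per sample was amplified into cRNA carrying the dye Cy3. The deposited array files hold spot intensity values that the authors extracted with Agilent Feature Extraction 10.7.1.1, per the submitters' processing notes; background had been subtracted and no normalization between arrays applied, per the file headers. A table of log2 values that the authors deposited beside the array files correlated with the log2 scanner signal at 0.9997 (KO-labelled) and 0.9999 (WT-labelled); its sorted columns differed by at most 0.00104 and each had a median of 4.96. The sources used here do not say how that table was made; it served as an alternative.

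Spots marked as non-uniform or population outliers were left out (105 KO-labelled, 102 WT-labelled), spots of a probe were averaged, and the 75th percentile of log2 processed signal over non-control probes was subtracted per array. A gene is the mean of its measured probes. The ± of a probe combines the scanner's error estimates on both arrays. Both arrays share a slide and a scan. Their number limits the precision, and the count threshold of 2-fold is a size rule, not a test. Names in the array files were kept, with RefSeq symbols (GRCm38.p6 table, names only) where noted. Alternatives were normexp with limma 3.58.1 in R 4.3.3, other scales, filters and thresholds. Values were computed with Python 3.11.15 (numpy 2.4.6, pandas 2.3.3). The scaling and the 2-fold call of probes were tested on simulated data in which every spot counted as above background. The filter on dim probes, the bounds and the gene means were not tested in this way. Genes were named by rule: every member above background on an array, list members at least 2-fold apart or else the 2 furthest from 0, and genes beside the clusters. Cdh1, Krt14, Sox10, Ctcf, Rad21, Smchd1, Dnmt3b, Adam10, Wasf1, Abi1 and members on neither array were added for their known roles. Tubb3, Snap25 and Gap43 were added for their signal. Members and lists were chosen with earlier results of these data known. No sequence is shown, and some list members are not reported here.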

Additional observations from a re-analysis of the deposited data

How the results depend on the processing

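The median of the measured beta probes stayed negative in every setting tried, from −1.07 on the scale of 8 spike-in probes to −0.38 without a filter on dim probes, and was −0.42 under normexp background correction. Counts past 2-fold were less stable. Beta genes lower and higher were 2 and 1 as reported, 1 and 0 under normexp, 7 and 0 on the spike-in scale, 5 and 2 without the filter, and 1 lower under the stricter filter; at 1.5-fold 7 were lower. The spike-in scale moves every difference by −0.46, so that of all genes 317 (1.60%) were higher and 3109 (15.7%) lower, and it put the alpha median at −0.41 and the gamma median at −0.18. Under normexp 368 of all genes were higher and 575 lower. Without the filter all 7 alpha, 22 beta and 7 gamma genes had a value, and 1 alpha and 1 gamma gene were 2-fold higher. The stricter filter left 0 alpha and 7 beta genes, 6 of them below 0. The other 88 summary values stayed within the limits set for them, although the alpha median, which is Pcdha8 alone, came to −0.01 under quantile normalization and with the deposited values. Among single members Pcdha8, Pcdhb13 and Pcdhb19 changed sign under 3, 1 and 3 of 8 alternatives, and no other measured member did. Pcdhb17 ranged from −1.85 to −1.04, Pcdhb4 from −1.56 to −0.44 and Pcdhb7 from 0.63 to 1.15. The gamma shared-end probes ranged from 0.63 to 1.16 and from −0.99 to −0.27. The causes of these shifts were not tested beyond the construction of each filter and scale. No paired analysis was possible because each genotype had 1 array. Dim signals limit the alpha cluster, the gamma variable exons and Pcdhb1 to Pcdhb12 most, and arrays of further tumours would be needed for any error between animals.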
